A study of Mus musculus with 4 samples.

Results

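The 38 genes described here encode the proximal machinery of the T cell receptor: the CD3 chains, the kinases, adaptors and enzymes that act next to the receptor, 3 NFAT factors, and the negative regulators that restrain the cascade. They were taken by name from the deposited count table of 25239 genes, and all 38 are in it. The data are 4 bulk RNA-seq libraries made from NKT cells, which are T cells whose receptor recognizes lipids presented by CD1d. The cells came from the small intestinal lamina propria (SI-LP) of WT mice at steady state. All 4 libraries belong to one condition, the genotype label is C57BL/6Jax, and the study's methods describe young adult animals of both sexes. The labels mark replicates 3 and 4 as First and replicates 1 and 2 as Second, without saying what these words refer to. They are called the first and second experiment here for short. Nothing in the labels says which libraries came from separate or pooled animals. The spread and p-values given here therefore measure differences between these libraries, which may be technical. Before tissue harvest the animals received a nanobody against ARTC2, an enzyme on lymphocytes, and the sort gate took live TCR-β+ CD1d tetramer-PBS57+ cells that lacked B220, CD11b, CD11c and CD8. No other NKT population is analysed here, and each value is therefore a level in intestinal NKT cells, given with its spread.

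When a T cell receptor binds its ligand, LCK and FYN phosphorylate the CD3 chains, ZAP70 docks there and phosphorylates the scaffolds LAT and SLP-76, and an assembly of adaptors forms around them. PLCγ1 in this assembly makes the second messengers that open calcium entry (and so activate calcineurin and NFAT) and that recruit RASGRP1 and PKC-θ, which lead to the MAPK and NF-κB branches. Phosphatases, diacylglycerol kinases and ubiquitin ligases set the threshold of this cascade, and NKT cells use it both for their selection in the thymus and for the rapid release of cytokines.

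The libraries held 3882803 to 8732858 counts on genes, and the ribosomal RNA precursor gene *Rn45s* took 7.36% to 28.1% of them. CPM is the count scaled to a common library size with edgeR's TMM factors, and TPM divides the count by the exon length in the table as well, so genes are compared with each other only in TPM. A gene was tested if it reached 10 counts in 2 or more libraries, which was so for 11689 genes of the table and for all 38 members, and their lowest count in any library was 19, above the limit of 3 counts that was taken as the floor (0.344 to 0.773 CPM). *Cd3e*, which marks T cells, was abundant in every library. It is not independent of the sort gate, since CD3 chains belong to the same receptor complex as the TCR-β that was gated on. *Cd8a* and *Cd8b1* together took at most 0.000149% of counts, with 0 counts in replicate 1 and 13 in replicate 2. The libraries were unlike in other respects. A list of 21 epithelial genes (highest, *Lyz1*) took 0.103% and 0.0191% of counts in replicates 1 and 3 against 1.25% and 2.97% in replicates 2 and 4, with 1 of its genes at 0 in replicate 2 and 4 at 0 in replicate 3. Plasma cell genes (6 genes, the highest being *Jchain*) made up 0.655% and 0.839% of the second experiment's libraries but 0.0114% and 0.0387% of the first experiment's, where replicate 3 had 2 of its genes at 0. B cell, myeloid, mast cell, and stromal and endothelial lists each took at most 0.0196% in any library.

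The 38 genes together took 1.23% of counts in replicate 1 (95% Wilson interval 1.23% to 1.24%), 0.476% in replicate 2 (0.472% to 0.481%), 1.09% in replicate 3 (1.08% to 1.09%) and 0.568% in replicate 4 (0.560% to 0.575%), with a mean of 0.841% ± 0.375 (SD, n = 4). Replicates 1 and 3 were high and replicates 2 and 4 low, so each experiment held a library of each kind, and the intervals, which cover counting error only, were far narrower than this spread. Without replicates 2 and 4 the mean was 1.16%. *Cd3e* made up 14.8% to 15.7% of the member counts in all 4 libraries, *Ptprc* 10.01% to 12.3%, *Cblb* 5.66% to 7.39%, and *Lcp2* 4.83% to 5.63%. Other abundant members moved by over 1.5 times, with *Ptpn22* at 5.70% to 9.63%, *Rasgrp1* at 4.10% to 6.90%, *Nfatc1* at 3.28% to 6.59% and *Cd4* at 2.61% to 6.37%. In these bulk libraries, fewer T cells and less RNA of a gene per cell cannot be told apart.

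**Figure D1:**
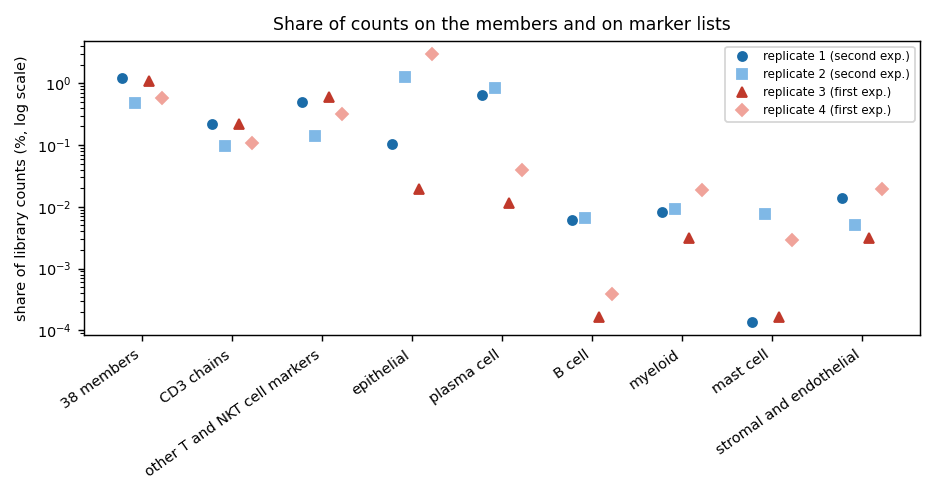
Share of library counts (%, log scale) on the 38 genes, on the 4 CD3 chains and on marker lists of other cell types, 1 point per library. The 38 genes, the CD3 chains and the other T and NKT cell markers are higher in replicates 1 and 3 than in replicates 2 and 4, and the epithelial list is the other way round. The CD8 list, at most 0.000149%, is not drawn.

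The TPM levels of the 38 genes were high relative to the transcriptome of the libraries. Their median percentile among the genes tested (averaged over the 4 libraries for each gene) was 81.1, against 48.1 for all genes tested. It was 88.7, 68.5, 90.7 and 85.1 in replicates 1 to 4, lowest in replicate 2. On this averaged percentile, 13 of the 38 were within 10 points of the top, against 873 of the 11689 genes tested. Within 25 points of the top were 24, against 2438, and above the 50th percentile were 37, against 5594. The member below the 50th percentile was *Ubash3a*, a suppressor of receptor signalling, at 42.5. The order of the genes was partly stable, since 495 of 703 pairs (70.4%) had the same order in all 4 libraries. At the top, *Cd3e* exceeded *Ptpn22* and *Ptpn22* exceeded *Ptprc* in 4 of 4 libraries. Of the 37 pairs of neighbours in the order of mean TPM, 33 differed by no more than 1 SD of their log2 ratio over libraries, so the ranks of single genes are not separable along most of the list. The other 4 neighbour pairs were *Cd3e* over *Ptpn22*, *Ptpn22* over *Ptprc*, *Lcp2* over *Txk* and *Lck* over *Nfatc1*. Of these, *Lck* over *Nfatc1* held in only 3 of 4 libraries. Among the pairs within 1 SD, *Ptpn6* over *Grap2* and *Pag1* over *Ubash3a* held in 4 of 4.

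**Figure D2:**
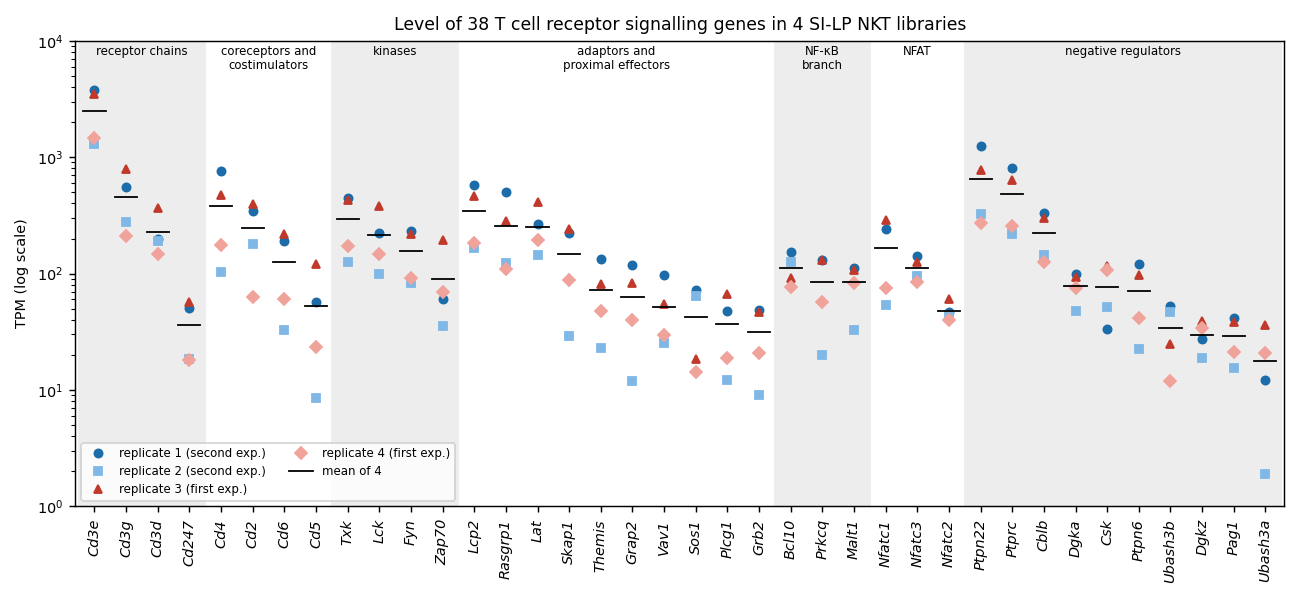
TPM (log scale) of the 38 genes in each of the 4 libraries, ordered by role and then by mean, with the mean as a bar. *Cd3e* stands above the rest, and for most genes replicates 1 and 3 (dark points) lie above replicates 2 and 4 (light points).

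The 4 CD3 chains form the signalling part of the receptor complex, and each carries the tyrosine motifs that LCK phosphorylates. Their promoters are shown because these 4 genes are made into one complex but were found at unequal levels, and because 3 of them are neighbours on chromosome 9. The 250 bases before the annotated start (RefSeq, GRCm38.p6) lie at chr9:45009612-45009861 on the minus strand for *Cd3e*, chr9:44981536-44981785 on the plus strand for *Cd3d*, chr9:44980432-44980681 on the minus strand for *Cd3g* and chr1:165788431-165788680 on the plus strand for *Cd247*. Capitals mark matches of the E-box motif CAGNTG on either strand, and the other motifs searched, the RUNX motif TGTGGT and the ETS motif CGGAAG, have no match in these 4 windows.
Cd3e: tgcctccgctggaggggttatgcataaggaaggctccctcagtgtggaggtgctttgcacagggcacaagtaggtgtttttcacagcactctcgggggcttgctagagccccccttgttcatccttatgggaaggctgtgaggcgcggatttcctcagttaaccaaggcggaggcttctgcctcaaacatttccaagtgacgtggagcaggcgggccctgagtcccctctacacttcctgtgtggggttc
Cd3d: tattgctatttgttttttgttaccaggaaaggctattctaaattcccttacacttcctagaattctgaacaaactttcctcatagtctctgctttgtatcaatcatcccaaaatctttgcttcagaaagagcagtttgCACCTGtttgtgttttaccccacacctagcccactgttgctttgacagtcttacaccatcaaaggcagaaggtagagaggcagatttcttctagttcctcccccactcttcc
Cd3g: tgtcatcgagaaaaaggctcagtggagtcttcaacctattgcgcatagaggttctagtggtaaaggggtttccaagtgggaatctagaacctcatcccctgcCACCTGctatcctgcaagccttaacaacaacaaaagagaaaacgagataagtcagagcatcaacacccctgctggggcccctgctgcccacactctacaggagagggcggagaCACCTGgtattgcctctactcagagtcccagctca
Cd247: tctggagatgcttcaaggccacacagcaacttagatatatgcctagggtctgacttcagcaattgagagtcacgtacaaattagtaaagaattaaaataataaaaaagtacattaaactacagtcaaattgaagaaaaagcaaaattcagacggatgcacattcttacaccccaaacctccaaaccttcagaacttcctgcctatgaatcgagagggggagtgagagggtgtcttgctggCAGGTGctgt
*Cd3e* had no match of the 3 motifs, *Cd3d* had an E-box at base -112 from the start, *Cd3g* had them at -148 and -35, and *Cd247* had one at -10. Sequences were given for 31 of the 38 genes (47 windows). An E-box stood in 23 of these windows (21 genes), against 44.8% of 32851 mouse windows, a RUNX motif in 5 windows (14.0% of all windows) and an ETS motif in 4 (13.6%). Matches of different motifs may overlap, and a match is a run of letters and not a measured site. Only the letters given were searched, so a window without a match may hold other forms of these motifs.

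*Cd3e* (chromosome 9, 44998743 to 45009611), which encodes CD3ε, had the highest level of the 38 genes, with 3784, 1300.0, 3519 and 1453 TPM in replicates 1 to 4 (2514 ± 1319, SD, n = 4). *Cd3g* (CD3γ) had 556, 278, 789 and 208 TPM. *Cd3d* (CD3δ) had 197, 191, 369 and 149 TPM. Replicate 3 was the highest library for *Cd3g* and *Cd3d*, while for *Cd3e* replicate 1 was highest in TPM and replicate 3 in CPM (1845 and 2096 CPM), and for these genes the libraries of the experiments overlapped. *Cd3e* exceeded *Cd3d* in 4 of 4 libraries, by 19.2-, 6.82-, 9.55- and 9.78-fold (geometric mean 10.5-fold), and *Cd3g* exceeded *Cd3d* in 4 of 4, by 2.82-, 1.46-, 2.14- and 1.40-fold. These are ratios of TPM within a library, given without a test, since an exact sign-flip test over 4 libraries cannot go below p = 0.125.

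*Cd247* (chromosome 1, 165788681 to 165871153), which encodes the ζ chain, was listed at 51.1, 18.4, 57.0 and 18.2 TPM, the lowest of the 4 chains in every library. This value depends on how overlapping genes were counted. Of the 4604 exon bases of *Cd247*, 2918 (63.4%) are shared with *Pou2f1*, a transcription factor gene on the opposite strand, and the header of the table records no strand option and no option to count read pairs on more than 1 gene, so pairs that touched the exons of both genes were left uncounted by default. With the length restricted to the 1686 unshared bases, *Cd247* had 139, 50.2, 156 and 49.7 TPM (98.8 ± 56.7), and *Cd3d* was 2.48-fold and *Cd3e* 26.1-fold higher (geometric means) in place of the 6.78-fold excess of *Cd3d* with the full length. With either length *Cd247* remained below *Cd3d* on average. Other members (*Lck*, *Lcp2* and *Dgka*) share 25 to 103 exon bases with another gene, at most 3.26% of their length.

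Among the coreceptors and costimulators, *Cd4*, the coreceptor that brings LCK to the receptor, was the highest, with 766, 104, 477 and 174 TPM (380.4 ± 304). *Cd2*, an adhesion receptor that lowers the threshold of activation, had 342, 179, 398 and 63.0 TPM. *Cd6*, a scavenger receptor family member on T cells, had 189, 32.8, 220.0 and 60.0 TPM. *Cd5*, a related inhibitory receptor whose level follows the strength of self-recognition in T cells, had 56.5, 8.55, 121 and 23.4 TPM. For all 4 genes replicates 1 and 3 were above replicates 2 and 4. Of the 7 role groups this one had the highest median SD of log2 CPM, 1.36, against 0.88 for the CD3 chains and 1.02 for all genes tested, and the CPM of *Cd5* differed 17.8-fold between its highest and lowest library.

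The kinases were all well detected. *Txk*, a TEC family kinase, had the highest level of the 4, with 449, 126, 424 and 173 TPM (293 ± 167). *Lck* had 222, 100.0, 379.9 and 148 TPM and *Fyn*, the other Src family kinase, 234, 83.0, 218 and 92.2 TPM. *Zap70* had 60.1, 35.6, 194 and 70.1 TPM. *Lck* was above *Fyn* in 3 of 4 libraries, with TPM ratios of 0.949, 1.20, 1.74 and 1.604, so the pair was near parity and its order was not the same in every library. *Zap70* was below *Lck* in 4 of 4 libraries, at 0.271, 0.356, 0.510 and 0.474 of its TPM.

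Of the adaptors and proximal effectors, *Lcp2* (SLP-76) was the highest, with 577, 167, 463 and 182 TPM (348 ± 205). *Rasgrp1*, which loads RAS downstream of diacylglycerol, had 502, 123, 284 and 109.8 TPM. *Lat* had 267, 145, 408 and 194 TPM. The rest of the group was lower. *Skap1*, which links the receptor to integrin adhesion, had a mean of 146 TPM, *Themis*, needed for thymic selection, 71.7, *Vav1*, an exchange factor for RAC, 51.4, and *Plcg1* 36.5. *Grap2* (GADS), the adaptor that couples SLP-76 to LAT, had 118, 12.0, 82.8 and 39.7 TPM and its widely expressed relative *Grb2* 48.4, 8.99, 46.5 and 20.9 TPM. *Grap2* was above *Grb2* in 4 of 4 libraries (1.34- to 2.44-fold in TPM). *Sos1*, the RAS exchange factor that GRB2 carries, departed from the other adaptors, with 71.9, 64.2, 18.3 and 14.3 TPM. Its 2 high libraries were those of the second experiment.

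The branch to NF-κB is held here by *Prkcq* (PKC-θ) and by *Bcl10* and *Malt1*, which act together to carry the signal on. *Bcl10* had 154, 126, 91.2 and 76.8 TPM, the lowest SD of log2 CPM of the 38 genes (0.30). *Malt1* had 113, 32.8, 108 and 83.1 TPM and *Prkcq* 129.5, 19.8, 132 and 56.8 TPM, both lowest in replicate 2. The NFAT genes encode the factors that calcineurin sends to the nucleus. *Nfatc1* had 243, 54.1, 289.6 and 75.8 TPM, *Nfatc3* 142, 94.7, 125 and 85.1, and *Nfatc2* 47.0, 44.4, 60.8 and 40.3. *Nfatc1* followed the division between replicates 1 and 3 and replicates 2 and 4 (SD of log2 CPM 1.26), whereas *Nfatc2* and *Nfatc3* varied little (SD 0.35 for each). *Nfatc1* exceeded *Nfatc2* in 4 of 4 libraries, by 5.17-, 1.22-, 4.76- and 1.88-fold in TPM, and *Nfatc3* exceeded *Nfatc2* by 3.02-, 2.13-, 2.05- and 2.11-fold.

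The 10 negative regulators had a median TPM percentile of 75.5, beside 71.4 for the 10 adaptors and 90.8 for the 4 kinases. *Ptpn22*, a phosphatase that removes the activating phosphates of LCK and ZAP70, ranked second of the 38 genes, with 1240.2, 326, 779.8 and 271 TPM (654 ± 452). *Ptprc* (CD45), a phosphatase that both primes and restrains LCK, had 809, 217, 631 and 258 TPM. *Cblb*, a ubiquitin ligase that enforces the need for costimulation, had 332, 143, 299 and 126 TPM. These 3 regulators were in the top 10% of genes tested. *Dgka* and *Dgkz*, which consume diacylglycerol, had means of 78.7 and 29.8 TPM, with *Dgka* 2.20- to 3.65-fold above *Dgkz* in 4 of 4 libraries. *Ptpn6* (SHP-1) had a mean of 70.9 TPM and *Pag1*, the membrane anchor of CSK, 29.2. *Csk*, the kinase that shuts off LCK and FYN, had 33.1, 51.8, 116 and 107 TPM and was the only one of the 38 genes whose level was higher in replicate 2 than in replicate 1 under TMM scaling. The paralogs *Ubash3a* and *Ubash3b* encode phosphatase-like suppressors of ZAP70. *Ubash3a* had 12.3, 1.90, 36.3 and 20.6 TPM, and *Ubash3b* had 53.0, 46.9, 25.0 and 12.0 TPM. *Ubash3b* was the higher of the pair in both libraries of the second experiment and *Ubash3a* in both of the first, so their order followed the experiment.

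The libraries of each experiment were then set against each other on the log2 CPM scale (prior count 2), as a description of 2 libraries at a time and without a test. All 38 genes were lower in replicate 4 than in replicate 3, against 47.4% of the 11689 genes tested, and 37 of 38 were lower in replicate 2 than in replicate 1, against 46.9%. The 37 genes lower in both comparisons compare with 29.9% of all genes tested. The exception, *Csk*, differed by -0.12 and 0.61. Scaling to library size alone moved the median of all genes from 0.08 and 0.13 to 0.41 and 0.39. It left 34, 33 and 30 of the 38 genes lower in replicate 4, in replicate 2 and in both. On that scale the shares over all genes tested were 37.7%, 41.1% and 22.0%. *Bcl10*, *Csk*, *Dgka* and *Dgkz* were then no longer lower in replicate 4, and *Cd3d*, *Sos1*, *Nfatc2*, *Csk* and *Ubash3b* were not lower in replicate 2. With TMM, 21 of 38 genes were lower by over 1 log2 unit in both comparisons, against 8.08% of all genes tested, and 0 of 38 were higher by over 1 in both, against 19%. With library size alone the count was 10 of 38, against 4.69% of all genes. The median differences of the 38 genes were -1.25 and -1.69.

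The members were also grouped by where they are expressed, from textbook knowledge, as T lineage, haematopoietic or broadly expressed genes. Of the 18 T lineage members, 12 were lower by over 1 log2 unit in both comparisons (medians -1.37 and -1.96). So were 4 of the 5 haematopoietic members and 5 of the 15 broadly expressed ones (medians -0.60 and -1.11 for the latter). Over all genes tested the share was 8.08%. The largest differences were those of *Cd2* in the first experiment (-2.66) and *Grap2* in the second (-3.31), and *Cd5* was low in both (-2.36 and -2.70). Small differences were those of *Sos1* (-0.36 and -0.20), *Bcl10* (-0.26 and -0.32) and *Nfatc2* (-0.60 and -0.12). The 10 other T and NKT cell markers, such as *Il2rb*, were lower in 10 of 10 cases in both comparisons, 6 of them by over 1 log2 unit. The shares over all genes tested were 29.9% and 8.08%. Of the 21 epithelial genes, 18 were higher in both comparisons, against 4112 of the 11689 genes tested. A rise of over 1 log2 unit in both was seen for 17 of the 21, against 19% of all genes tested. As a share of counts, the epithelial list went from 0.0191% (replicate 3) to 2.97% (replicate 4) in the first experiment. In the second it went from 0.103% (replicate 1) to 1.25% (replicate 2). The part of the epithelial counts in the difference was not tested.

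**Figure D3:**
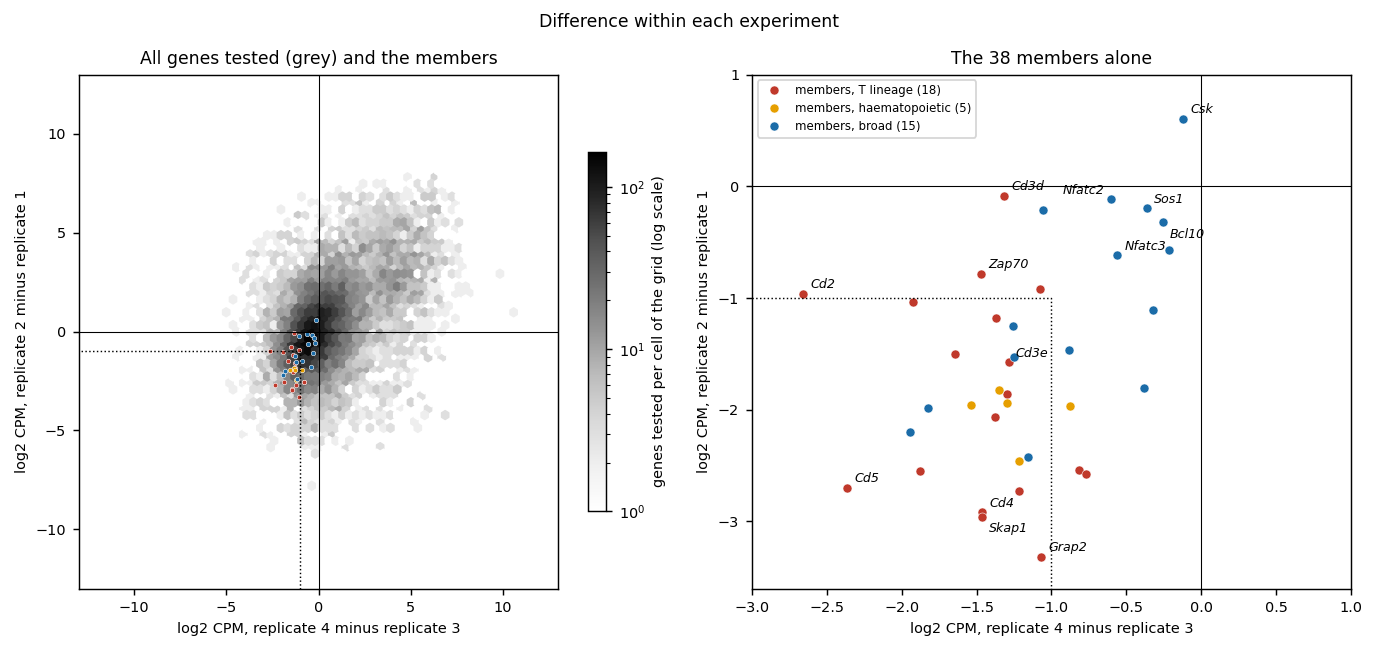
Log2 CPM difference (TMM, prior count 2) of replicate 4 from 3 (first experiment, x axis) and of replicate 2 from 1 (second experiment, y axis), for all genes tested in grey with the members on top (left) and for the 38 members, coloured by breadth of expression (right). Dotted lines mark a difference of -1 in both, beyond which 21 of the 38 genes lie against 8.08% of all genes tested, and *Csk* alone is above 0 on the y axis.

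To see which members departed from the T cell receptor genes themselves, counts were also scaled to the sum of the 4 CD3 chains in each library. *Cd3e* supplied most of this sum, with 13247 of 15810, 6428 of 8540, 9340 of 12181 and 3408 of 4204 counts in replicates 1 to 4. The chains did not all move together, since *Cd3d* was at 0.05 in the first experiment and 1.33 in the second. On this scale 19 of 38 genes (16 of the 34 that are not CD3 chains) were within 1 log2 unit of the CD3 chains in both experiments, against 14.8% of all genes tested. These included 4 of 4 kinases, with *Lck* at 0.00 and 0.24 and *Fyn* at 0.12 and -0.11, and *Lcp2*, *Lat*, *Txk*, *Rasgrp1*, *Ptprc*, *Ptpn22* and *Cblb*. The 4 coreceptors and costimulators were not among them. *Cd5* was lower than the CD3 chains by over 1 log2 unit in both experiments (-1.01 and -1.33), the only member to be so, against 1.1% of all genes. *Cd4* was close to them in the first experiment (-0.10) and lower in the second (-1.497), and *Cd2* was lower in the first (-1.30) and not in the second (0.46). Of the 38 genes, 3 (7.89%) were higher by over 1 in both, against 45.2% of all genes: *Bcl10* (1.11 and 1.10), *Csk* (1.25 and 2.03) and *Sos1* (1.003 and 1.22), the last just above the limit. All 3 are broadly expressed. The median of all genes on this scale was 1.47 and 1.55.

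**Figure D4:**
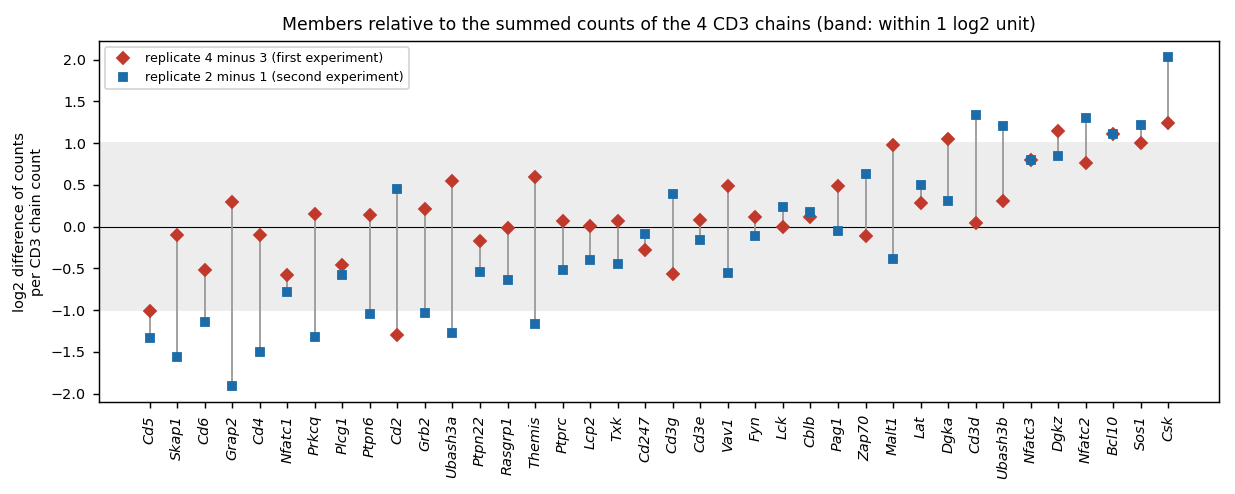
Log2 difference in counts per CD3 chain count between the libraries of each experiment, for the 38 genes ordered by the mean of both values, with the 2 experiments joined by a line. The grey band is 1 log2 unit to either side of 0, and 19 of the 38 genes have both points inside it, while *Cd5* is below it and *Bcl10*, *Csk* and *Sos1* are above it in both.

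Between the experiments, 0 of the 38 genes differed at an adjusted p under 0.05 (edgeR quasi-likelihood test, Benjamini-Hochberg over all genes tested, lowest adjusted p 0.9997), against 0% of all genes. DESeq2 also called 0 of 38, against 0.397% of the genes to which it gave an adjusted p. At an unadjusted p under 0.05, edgeR gave 2 of the 38 genes (*Sos1* and *Csk*), against 2.12% of all genes, and DESeq2 gave 3 (these 2 and *Zap70*), against 4.44% of all genes. The test rested on 2 libraries per experiment with a biological coefficient of variation of 0.976. The CPM of 8 of 38 genes did not overlap between the experiments, against 29.1% of all genes tested, and these were *Zap70*, *Sos1*, *Bcl10*, *Nfatc2*, *Csk*, *Ubash3a*, *Ubash3b* and *Dgkz*.

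*Sos1* was at 215 and 187 CPM in the second experiment and at 66.9 and 51.9 CPM in the first, a log2 fold change of 1.76 with an SE of 0.56 (edgeR adjusted p = 0.9997). *Csk* showed the opposite order, with 36.8 and 56.1 CPM in the second and 157 and 144 in the first (log2 fold change -1.69, SE 0.60, edgeR adjusted p = 0.9997). *Zap70* had 54.7 and 31.7 CPM in the second experiment and 215 and 77.4 in the first. Its log2 fold change was -1.76 with an SE of 0.75 (edgeR adjusted p = 0.9997). For these 3 genes the libraries of an experiment lay on the same side of those of the other, but the adjusted test did not separate them. All 3 are among the 8 of 38 genes whose CPM did not overlap between the experiments, against 29.1% of all genes tested. *Ubash3a* was 4.91-fold higher in mean CPM in the first experiment and *Ubash3b* 2.19-fold higher in the second, with no call for either by the adjusted edgeR test. The estimate was negative, that is, lower in the second experiment, for 31 of the 38 genes, against 48.6% of all genes tested. This count is given for TMM scaling alone. The unscaled share of counts on the 38 genes overlapped between the experiments (1.23% and 0.476% in the second, 1.09% and 0.568% in the first). The plasma cell genes were higher in the second experiment (0.655% and 0.839% against 0.0114% and 0.0387% of counts). The part of the plasma cell counts in the experiment difference was not tested.

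The promoter of *Sos1* is printed as that of the gene with the largest upward estimate in this comparison. Its 250 bases before the start are at chr17:80480454-80480703 on the minus strand (RefSeq, GRCm38.p6), with a RUNX motif at base -206 and an E-box at -17 in capitals.
Sos1: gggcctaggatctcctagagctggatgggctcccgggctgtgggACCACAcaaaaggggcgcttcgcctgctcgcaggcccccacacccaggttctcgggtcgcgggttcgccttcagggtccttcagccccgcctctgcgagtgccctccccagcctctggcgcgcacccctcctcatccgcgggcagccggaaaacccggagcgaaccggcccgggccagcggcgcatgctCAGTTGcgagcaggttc
Both motifs were searched as for the CD3 chains, and no binding was measured here.

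**Figure D5:**
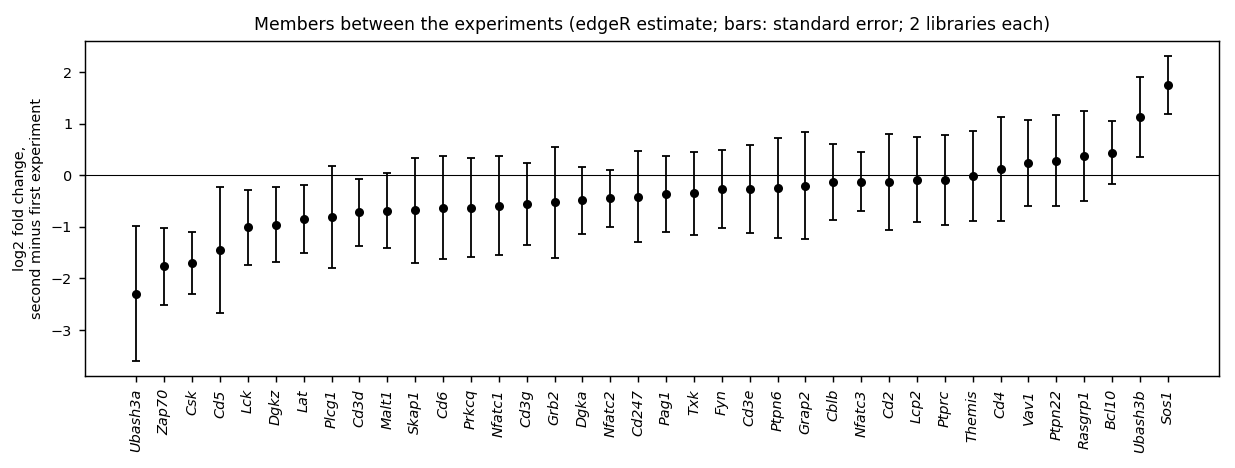
Log2 fold change of the second experiment from the first for the 38 genes (edgeR, TMM), with bars of 1 standard error and 2 libraries per experiment. *Sos1* lies at 1.76 and *Csk* at -1.69, with *Zap70* (-1.76) and *Ubash3a* (-2.30, SE 1.31) below *Csk*. Of the 38 estimates, 31 are below 0 (48.6% over all genes tested), while 0 of 38 pass the adjusted test.

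A further 48 genes of the same pathway, listed by role, gave a frame for these values, and 47 of them were tested (*Dok1* was not). Their median TPM percentile was 71.7. In both within-experiment comparisons 34 of 47 were lower and 13 of 47 by over 1 log2 unit, beside 37 and 21 of the 38 members. The shares over all genes tested were 29.9% and 8.08%. The edgeR test called 0 of 47 between the experiments (0 at an unadjusted p under 0.05), against 0% and 2.12% of all genes. *Cd28*, the main costimulatory receptor, had 843, 261, 474 and 234 TPM. *Syk*, the relative of ZAP70 used by B cells and myeloid cells, had 9.08, 27.1, 1.25 and 15.1 TPM. It was higher by over 1 log2 unit in replicates 2 and 4 (1.52 and 3.44), as was *Mapk3* (1.36 and 1.38). These were the only 2 of the 47 genes to be so, against 19% of all genes tested. *Syk* was below *Zap70* in 4 of 4 libraries and lay in the order opposite to the members. Within the other groups, mean TPM ran from 2.54 (*Dok1*) to 401 (*Sh2d2a*) among proximal genes, from 16.2 (*Hras*) to 108 (*Mapk3*) in the RAS and MAPK branch and from 11.5 (*Carmil2*) to 453 (*Cd28*) in the NF-κB and PI3K branch.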

How the data were processed

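NKT cells of the SI-LP gave 4 bulk RNA-seq libraries, 2 labelled First and 2 labelled Second, which are called experiments here. The authors deposited raw counts per gene. Per the file headers and the study's methods, paired reads were aligned with HISAT2 and primary alignments counted on RefSeq exons with featureCounts 1.6.4, with no strand option. The methods name GRCm39, but the coordinates in the table are GRCm38, which are used here, and the submitters' processing notes also list GRCm38.p6, RSEM and Bowtie2, whose role is not stated. Strand was not used, so reads of overlapping genes cannot be told apart. The deposited table holds 6 library columns, of which 2 match no sample label and were not used.

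Total counts were 3882803 to 8732858. CPM used TMM factors (edgeR 4.0.16, R 4.3.3) and TPM the deposited exon lengths. The edgeR quasi-likelihood test compared the experiments over the 11689 genes that reached 10 counts in 2 or more libraries. Alternatives were DESeq2 1.42.0, other size factors, filters, prior counts (0.5 in place of 2), CPM in place of TPM and leaving out replicates. All 38 members are named, and other genes by fixed lists and rules, of which some are not reported here. The members, roles, pathway and marker lists were chosen with earlier results of these data known. Promoter windows came from RefSeq (GRCm38.p6). Intervals are 95% Wilson intervals and, like the floor of 3 counts, cover counting error only, since PCR copies are not independent molecules.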

Additional observations from a re-analysis of the deposited data

Results flagged for a closer look

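Of 57 values examined for a library far from the others, 2 passed Dixon's limit for 4 samples, where about 2.85 are expected by chance (1 in 20). *Cd3d* had 200.4 CPM in replicate 3 against 80.2 to 87.9 CPM in the other 3 libraries, a gap of 0.936 of the whole range. The log2 ratio of *Nfatc3* to *Nfatc2* in TPM stood apart in replicate 1, where *Nfatc3* was 3.02-fold above *Nfatc2* against 2.05- to 2.13-fold in the other 3, a gap of 0.902 of the range.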

How the results depend on the processing

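Of the 38 genes, 0 were called between the experiments in every alternative tried. Over all genes tested the count moved from 0 to 41 with DESeq2, to 60 with no filter on low counts and to 0 to 7 when 1 replicate was left out (7 without replicate 3, 6 without replicate 4), where the lone library of an experiment is assumed to vary like the others. The count of members lower by over 1 log2 unit in both experiments was 21, or 10 with library size alone and 1 when scaled to the CD3 chains, a scale on which the CD3 chains cannot differ as a sum. With CPM in place of TPM, which leaves out gene length, the mean log2 ratio moved from -2.76 to -0.97 for *Cd247* over *Cd3d* (-1.31 with shared exon bases left out, an alternative chosen after seeing the data), from 0.42 to -0.26 for *Lck* over *Fyn*, from 1.39 to 0.93 for *Dgka* over *Dgkz*, from 1.20 to 0.78 for *Nfatc3* over *Nfatc2* and from 0.87 to 1.81 for *Grap2* over *Grb2*. The median percentile of the 38 genes ran from 77.6 to 87.3 when 1 replicate was left out, and was 74.6 with at least 10 counts in all 4 libraries and 88.9 without replicates 2 and 4 (chosen after seeing the data). The share of counts was 0.710% to 0.962% when 1 replicate was left out and 1.04% without *Rn45s*. Of 266 alternative values of the members' mean CPM, 1 moved by over 1 SD between libraries (*Bcl10*, TMM without *Rn45s*). Leaving out 1 of 4 libraries cannot shift their mean by 1 SD, so the values made that way could not have moved. The count therefore says nothing on how far the levels rest on single libraries. No paired analysis was possible because the experiments share no replicate number. Depth limits low genes, where 3 counts are 0.344 to 0.773 CPM.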
